A study of Homo sapiens with 12 samples.

Results

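The cytosolic ribosome is built from ribosomal RNA and a fixed set of ribosomal proteins, the RPL proteins of the large subunit and the RPS proteins of the small subunit, which begin to assemble in the nucleolus and mature in the cytoplasm. The genes of these proteins are among the most highly expressed in dividing cells. Their mRNAs usually begin with a C followed by a run of pyrimidines, the 5′ terminal oligopyrimidine (TOP) tract, through which mTOR signalling and the RNA-binding protein LARP1 control their translation. The members described here were chosen by gene symbol, as genes of the count table whose name in the deposited immunoprecipitation table has the form RPL or RPS followed by a number, P and a number, or A, with paralogs ending in L left out. This gave 77 genes of the 27745 in the count table, 46 of the large and 31 of the small subunit. All 77 passed the filter on low counts and were tested, and all 77 are present in both immunoprecipitation tables.

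The cells were MDA-MB231, an established line from a breast cancer that lacks hormone receptors. In the knockdown experiment cells carried a hairpin RNA against TDP43 (sh_TDP43), a hairpin RNA against SRSF3 (sh_SRSF3) or a control hairpin (sh_control), with 2 libraries per group, and the labels tell apart no hairpins against one target. TDP43, the product of TARDBP, binds UG-rich RNA and keeps cryptic exons out of mRNAs, and SRSF3 belongs to the SR family of splicing factors. In the second experiment cells overexpressed flag-TDP43 or flag-SRSF3, and RNA recovered with the tagged protein by immunoprecipitation against flag (RIP) was set against input RNA of the same cells, with 1 library each. The labels also name cells with both hairpins, which were not analysed here. Nothing in the labels ties replicates to separate cultures, and the p-values below therefore rest on a spread between libraries that may be technical.

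TARDBP, the targeted gene, was at 34.4 and 31.3 counts scaled to library size (CPM, the count per 1e+06 reads) in sh_TDP43 libraries, against 168 and 125 CPM in sh_control libraries. SRSF3 was at 64.0 and 61.7 CPM in sh_SRSF3 libraries, against 459 and 404 CPM in sh_control libraries. SRSF3 mRNA also fell in sh_TDP43 libraries, to 187 and 180.4 CPM (log2 fold change −1.23 ± 0.10 SE, edgeR adjusted p = 3.05e-07), and in the sh_TDP43 group the lower levels of both mRNAs cannot be told apart. TARDBP mRNA in turn fell in sh_SRSF3 libraries, to 108 and 102 CPM (log2 fold change −0.48 ± 0.12 SE, edgeR adjusted p = 0.00326), a call lost without sh_control replicate 1 (−0.25, edgeR adjusted p = 0.0571). Libraries held 34457445 to 38326930 counted reads.

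The annotated starts of 8 members called in a knockdown, picked after their values were seen from those that have it, are shown to make the TOP tract visible. Each window covers 15 bases before and 15 bases from the start listed in RefSeq (GRCh38.p14), 5′ to 3′ on the gene's strand. Capitals mark a C at the annotated start together with the unbroken run of C and T that follows it. The windows are chr3:101686704-101686733 (minus strand) for RPL24, chr3:51995881-51995910 (minus) for RPL29, chrX:101390996-101391025 (plus) for RPL36A, chr12:56116618-56116647 (plus) for RPL41, chr15:69452803-69452832 (plus) for RPLP1, chr3:39406705-39406734 (plus) for RPSA, chr9:19380222-19380251 (minus) for RPS6 and chr10:78033848-78033877 (plus) for RPS24.
RPL24: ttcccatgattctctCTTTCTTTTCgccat
RPL29: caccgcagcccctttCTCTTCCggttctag
RPL36A: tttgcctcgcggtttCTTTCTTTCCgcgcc
RPL41: cggaacttcgcctttCTCTCggccttagcg
RPLP1: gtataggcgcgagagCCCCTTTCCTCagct
RPSA: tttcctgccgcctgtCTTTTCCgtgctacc
RPS6: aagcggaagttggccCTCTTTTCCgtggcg
RPS24: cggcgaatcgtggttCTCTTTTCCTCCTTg

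RefSeq starts were listed for 62 of the 77 members. A C at the start followed by at least 4 bases that are each C or T was present at a listed start of 46 of these 62 genes (74.2%), against 1404 of 27305 genes of the whole reference table (5.14%), read on the gene's own strand. The tract was present in 28 of 38 large subunit genes and in 18 of 24 small subunit genes. Among members lower in sh_TDP43 than in sh_control, 9 of 11 had it, and among members lower in sh_SRSF3, 6 of the 9 with a listed start had it. The starts listed for RPL15, which fell in both knockdowns, did not have it, which says only that these letters are not at those starts.

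Ribosomal protein genes took similar shares of the counted reads in all 3 groups. The 77 genes together took 4.85% and 4.695% of counted reads in sh_TDP43 libraries, 4.52% and 4.22% in sh_SRSF3 libraries and 4.95% and 4.46% in sh_control libraries. Large subunit genes took 2.95% and 2.85% in sh_TDP43, 2.82% and 2.63% in sh_SRSF3 and 3.04% and 2.76% in sh_control. Small subunit genes took 1.90% and 1.84% in sh_TDP43, 1.69% and 1.59% in sh_SRSF3 and 1.91% and 1.70% in sh_control. The sh_control libraries bracketed both sh_TDP43 libraries for the large subunit and for the small subunit, and both sh_SRSF3 libraries lay below both sh_control libraries for the small subunit alone. Replicate 1 was above replicate 2 for 75 of 77 members in sh_TDP43, 76 of 77 in sh_SRSF3 and 68 of 77 in sh_control, with median log2 differences of 0.08, 0.12 and 0.15. 

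Per kilobase of exon, RPL8 and RPL13A were among the most abundant members. RPL8, which lies near the peptidyl transferase centre, was at 665 ± 17.7, 689 ± 27.7 and 608 ± 115 CPM per kb in sh_TDP43, sh_SRSF3 and sh_control (SD, n = 2 each). RPL13A, known also from the interferon-gamma-activated inhibitor of translation complex, was at 696 ± 15.4 in sh_TDP43, 583 ± 37.1 in sh_SRSF3 and 667 ± 51.2 CPM per kb in sh_control (SD, n = 2 each). The order of RPL8 and RPL13A differed between sh_SRSF3 and the other groups, and in sh_control they overlapped within their spreads.

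Among the least abundant members per kilobase were RPL17 and RPL36A. RPL17, which lines the peptide exit tunnel, was at 2.37 ± 0.0325 CPM per kb in sh_TDP43, 1.72 ± 0.603 in sh_SRSF3 and 3.25 ± 0.207 CPM per kb in sh_control (SD, n = 2 each). RPL36A was at 2.50 ± 0.0598 in sh_TDP43, 1.88 ± 0.514 in sh_SRSF3 and 5.30 ± 0.748 CPM per kb in sh_control (SD, n = 2 each). For comparison, the median large subunit gene was at 151, 176 and 171 CPM per kb in sh_TDP43, sh_SRSF3 and sh_control. Members of low count share exon sequence with annotated read-through genes on the same strand, which leaves reads there uncounted for either gene: 28.8% of exon bases for RPS10, 24.8% for RPL17, 14.6% for RPL26 and 8.40% for RPL36A. These genes also have near-identical copies, so their values are uncertain. Of all members 27 share at least 1 exon base with another annotated gene. Counting ignored strand, and exons of genes on the other strand cover 21.4% of the exon bases of RPS28, 9.45% of RPL5 and 6.94% of RPL15.

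In sh_TDP43 cells a small set of ribosomal protein mRNAs fell, RPL36A, RPL15, RPL24, RPS10 and RPL29 by the most. Of 77 members, 1 rose and 11 fell (15.6% called, against 44.8% of all 15026 genes tested, edgeR adjusted p under 0.05). By direction these were 1.30% higher, against 20.7% of all genes, and 14.3% lower, against 24.1%. Under upper-quartile scaling 6 rose and 8 fell. The sh_TDP43 and sh_control libraries did not overlap for 41 of the 77 (53.2%), against 73.2% of all genes. Among genes with a mean of at least 100 CPM, 54.2% of all genes were called. The large subunit gave 1 higher and 6 lower of 46, and the small subunit 0 higher and 5 lower of 31. Median log2 changes were −0.10 for large and −0.09 for small subunit genes and −0.00 for all genes, and under upper-quartile scaling, which moved the median of all genes to 0.09, they were −0.00 and 0.01.

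**Figure D1:**
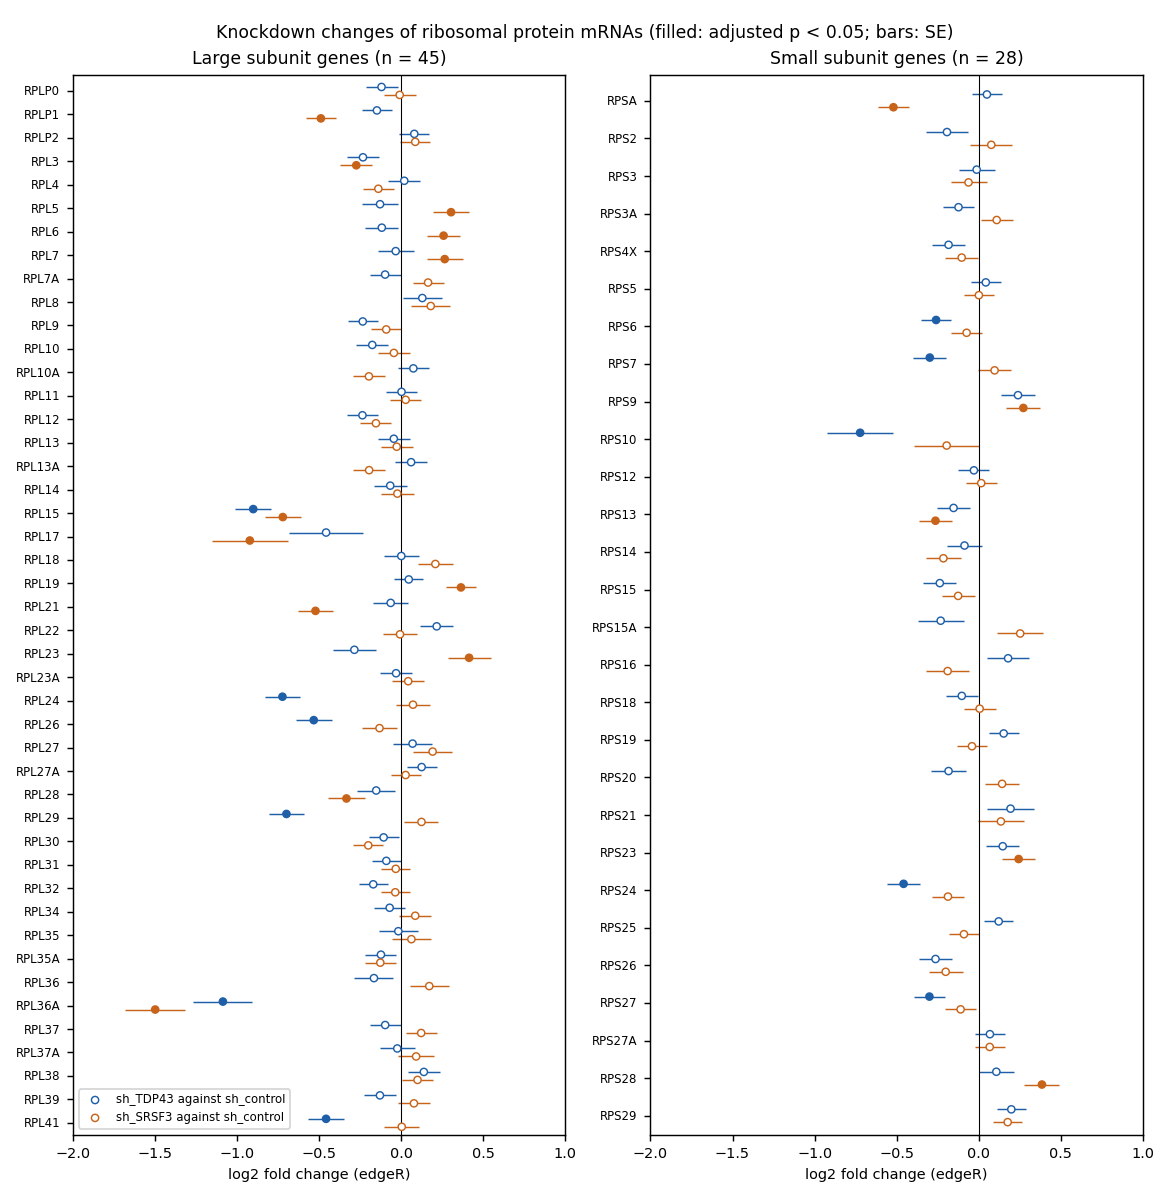
Log2 fold change (x axis, edgeR) of the ribosomal protein genes reported by name (y axis) in sh_TDP43 (blue) and sh_SRSF3 (orange) against sh_control, for large subunit genes (left) and small subunit genes (right). Points are estimates from 2 libraries per group, bars are standard errors and filled points passed an adjusted p under 0.05; most points lie near 0 and RPL36A and RPL15 lie far to the left in both knockdowns.

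RPL15, a large subunit protein mutated in Diamond-Blackfan anaemia, had the largest fall among members with a mean of at least 100 CPM. RPL15 (GRCh37 chr3:23958036-23965183, plus strand) was at 550.4 and 448 CPM in sh_TDP43 libraries, against 944 and 919.7 CPM in sh_control libraries. Both sh_TDP43 libraries lay far below both sh_control libraries (log2 fold change −0.90 ± 0.11 SE, edgeR adjusted p = 1.92e-05). RPL36A, whose protein lies at the exit site for tRNA and which has the near-identical paralog RPL36AL, had the largest fall but a low count. RPL36A was at 10.1 and 9.73 CPM in sh_TDP43 libraries, against 23.1 and 18.9 CPM in sh_control libraries (log2 fold change −1.09 ± 0.18 SE, edgeR adjusted p = 0.000246). The groups did not overlap. The paralog RPL36AL had a log2 fold change of −0.03 (edgeR adjusted p = 0.85).

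RPL24, a protein of the bridge between the subunits, also fell. RPL24 (GRCh37 chr3:101399935-101405626, minus strand) was at 331 and 295 CPM in sh_TDP43 libraries, against 557 and 477 CPM in sh_control libraries (log2 fold change −0.72 ± 0.11 SE, edgeR adjusted p = 9.62e-05). RPL29, a large subunit protein also described as a heparin-binding protein, was at 419 and 371 CPM in sh_TDP43 libraries, against 681 and 600.0 CPM in sh_control libraries (log2 fold change −0.70 ± 0.10 SE, edgeR adjusted p = 0.000106; GRCh37 chr3:52027616-52029958, minus strand). For both genes every sh_TDP43 library lay below every sh_control library. RPL26, mutated in some cases of Diamond-Blackfan anaemia, was at 36.1 and 34.7 CPM in sh_TDP43 libraries, against 55.3 and 47.1 CPM in sh_control libraries (log2 fold change −0.53 ± 0.11 SE, edgeR adjusted p = 0.00128). RPS10, of low count, was at 4.15 and 3.93 CPM in sh_TDP43 libraries, against 6.24 and 7.10 CPM in sh_control libraries (log2 fold change −0.72 ± 0.20 SE, edgeR adjusted p = 0.0101).

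The other members that fell were RPS24, RPL41, RPS27, RPS7 and RPS6, with log2 fold changes of −0.46, −0.46, −0.30, −0.30 and −0.26. RPS24 was at 503 and 433 CPM in sh_TDP43 libraries, against 635 and 649.8 CPM in sh_control libraries (edgeR adjusted p = 0.00191). RPS6, the classical substrate of the S6 kinases, was at 614 and 567 CPM in sh_TDP43 libraries, against 693 and 720.4 CPM in sh_control libraries (edgeR adjusted p = 0.034). The call for RPS6 was lost under upper-quartile scaling (−0.17, edgeR adjusted p = 0.152) and with only the groups compared (−0.25, edgeR adjusted p = 0.0683). Without sh_TDP43 replicate 2 its log2 fold change was −0.20. RPL15, RPL24, RPL26, RPL29, RPL36A and RPS24, 6 of the 12 called members, passed under all 13 alternatives. RPS10 lost its call without sh_TDP43 replicate 2 or without sh_control replicate 2 (the range of its adjusted p over all alternatives was 0.00351 to 0.0681).

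The number of calls rested on single libraries. Without sh_control replicate 1, 7 members were higher and 10 lower; without sh_control replicate 2, 0 were higher and 21 lower. Without sh_TDP43 replicate 2, 0 were higher and 6 lower, and without sh_TDP43 replicate 1 or either sh_SRSF3 library, 0 were higher.

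**Figure D2:**
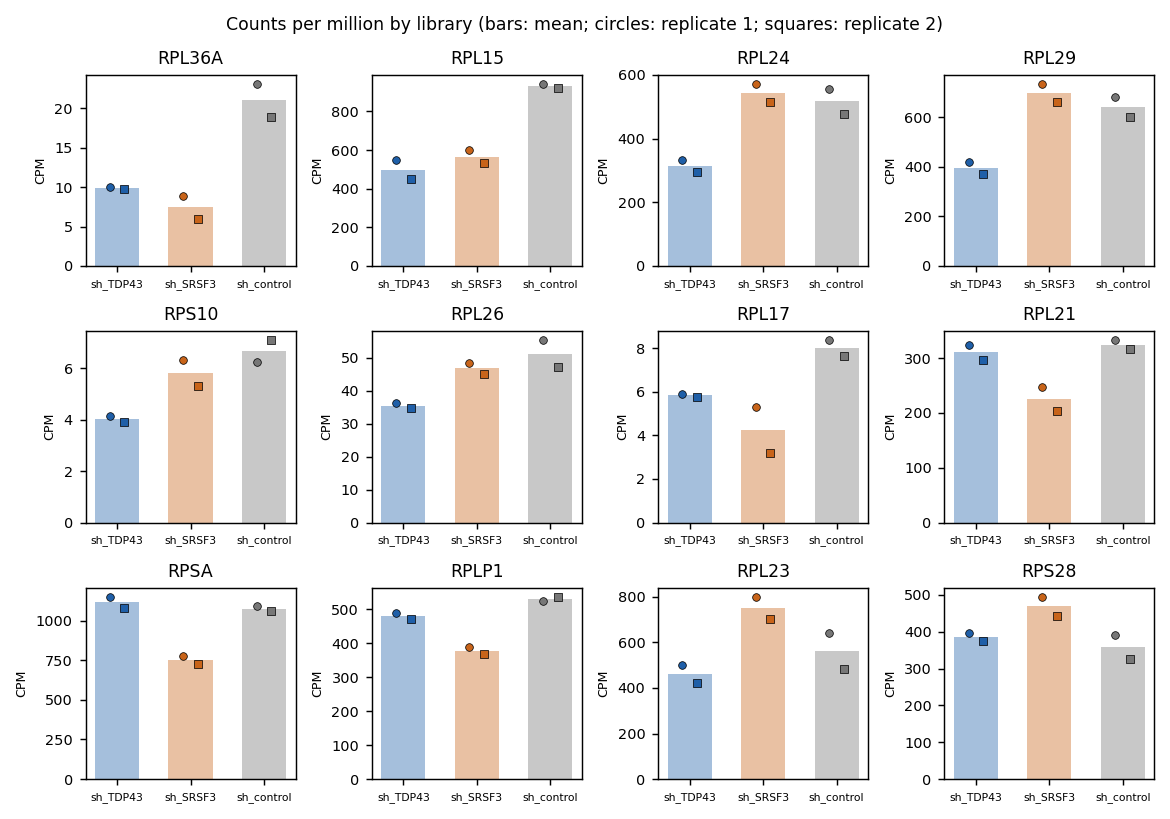
Normalised level (y axis, CPM from 0) of 12 ribosomal protein genes called in either knockdown, by group (x axis: sh_TDP43, sh_SRSF3, sh_control). Bars are means, circles replicate 1 and squares replicate 2; RPL15 and RPL36A are low in both knockdowns, RPL24 and RPL29 were called lower in sh_TDP43, and RPSA and RPL21 are low in sh_SRSF3.

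In sh_SRSF3 cells about as many ribosomal protein mRNAs rose as fell. Of 77 members, 8 rose and 10 fell (23.4% called, against 66.9% of all genes tested), with 10.4% higher against 32.5% of all genes and 13.0% lower against 34.4%. The sh_SRSF3 and sh_control libraries did not overlap for 36 of the 77 (46.8%), against 83.2% of all genes. Under upper-quartile scaling 1 rose and 27 fell. Among all genes with a mean of at least 100 CPM, 74.2% were called, 49.4% higher and 24.8% lower. Their median log2 change was 0.22, against 0.03 for large and −0.02 for small subunit genes at that level. The large subunit gave 5 higher and 7 lower of 46, and the small subunit 3 higher and 3 lower of 31. Median log2 changes were 0.01 for large and 0.00 for small subunit genes, against −0.03 for all genes, and under upper-quartile scaling they were −0.15 and −0.15, against −0.19 for all genes.

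RPL36A and RPL15 fell here too. RPL36A was at 8.89 and 6.01 CPM in sh_SRSF3 libraries (log2 fold change −1.50 ± 0.18 SE against sh_control, edgeR adjusted p = 6.14e-06), and RPL15 at 599 and 532 CPM (−0.72 ± 0.11 SE, edgeR adjusted p = 4.78e-05), each below both sh_control libraries given above. The same sh_control libraries serve both comparisons. RPSA, which is needed for small subunit maturation and is also known as a laminin receptor, was at 777 and 724 CPM in sh_SRSF3 libraries, against 1089 and 1063 CPM in sh_control libraries (log2 fold change −0.52 ± 0.09 SE, edgeR adjusted p = 0.000195; GRCh37 chr3:39448180-39454033, plus strand). RPLP1, an acidic protein of the stalk that recruits elongation factors, was at 390.2 and 367 CPM in sh_SRSF3 libraries, against 525 and 537 CPM in sh_control libraries (log2 fold change −0.49 ± 0.09 SE, edgeR adjusted p = 0.000245). Its partners in the stalk did not pass the test, with log2 fold changes of −0.01 for RPLP0 and 0.09 for RPLP2. For RPSA and RPLP1 both sh_SRSF3 libraries lay below both sh_control libraries by more than the spread within either group.

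RPL21, a large subunit protein, was at 248 and 204 CPM in sh_SRSF3 libraries, against 333 and 316 CPM in sh_control libraries (log2 fold change −0.52 ± 0.11 SE, edgeR adjusted p = 0.000561). RPL17, of low count, was at 5.29 and 3.19 CPM in sh_SRSF3 libraries, against 8.37 and 7.64 CPM in sh_control libraries (log2 fold change −0.92 ± 0.23 SE, edgeR adjusted p = 0.00288). Smaller falls were called for RPL28, RPL3 and RPS13, with log2 fold changes of −0.33, −0.27 and −0.26. None of these 3 calls held without sh_control replicate 1 or without sh_SRSF3 replicate 2.

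Of the members that rose, RPL23 had the largest change. RPL23, which with RPL5 can bind MDM2 when ribosome assembly is disturbed, was at 801 and 702 CPM in sh_SRSF3 libraries, against 642 and 485 CPM in sh_control libraries (log2 fold change 0.41 ± 0.13 SE, edgeR adjusted p = 0.0121). RPS28 was at 495 and 442 CPM in sh_SRSF3 libraries, against 392 and 326 CPM in sh_control libraries (log2 fold change 0.39 ± 0.11 SE, edgeR adjusted p = 0.00551). RPL19, another protein of the bridges between subunits, was at 901 and 875 CPM in sh_SRSF3 libraries, against 692 and 687 CPM in sh_control libraries (log2 fold change 0.37 ± 0.09 SE, edgeR adjusted p = 0.00228). RPL5, which carries one of the ribosomal RNAs into the large subunit, was at 997 and 929.7 CPM in sh_SRSF3 libraries, against 865 and 695 CPM in sh_control libraries (log2 fold change 0.30 ± 0.11 SE, edgeR adjusted p = 0.0273). RPS9, RPL7, RPL6 and RPS23 rose with log2 fold changes of 0.27, 0.27, 0.26 and 0.24. In each of the 8 the sh_SRSF3 libraries lay above both sh_control libraries, and RPL19 alone of the 8 passed under all 13 alternatives.

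Without sh_control replicate 1, 17 members were higher and 6 lower in sh_SRSF3, and without sh_control replicate 2, 1 was higher and 15 lower. Without sh_SRSF3 replicate 1 these counts were 1 and 10, without sh_SRSF3 replicate 2 they were 3 and 6, and without sh_TDP43 replicate 2 they were 5 and 10.

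Set directly against each other, the knockdowns differed at 26 members, 8 higher and 18 lower in sh_TDP43 than in sh_SRSF3 (33.8%, against 65.5% of all genes, 33.5% higher and 32.0% lower), while upper-quartile scaling gave 30 higher and 3 lower. Among all genes with a mean of at least 100 CPM, 21.8% were higher and 51.5% lower in sh_TDP43 than in sh_SRSF3. Their median log2 change was −0.26, against −0.08 for large and −0.04 for small subunit genes at that level. Libraries of the knockdowns did not overlap for 50 of the 77 (64.9%), against 83.8% of all genes. The largest differences were at RPL29 and RPL24, with log2 fold changes of −0.82 ± 0.10 SE and −0.80 ± 0.11 SE for sh_TDP43 against sh_SRSF3 (edgeR adjusted p = 8.89e-06 and 1.53e-05). RPL29 was at 419 and 371 CPM in sh_TDP43 libraries, against 735 and 662 CPM in sh_SRSF3 libraries. RPL24 was at 331 and 295 CPM in sh_TDP43 libraries, against 572 and 515 CPM in sh_SRSF3 libraries. RPL23 was lower in sh_TDP43 as well, at 503 and 423 CPM, against 801 and 702 CPM in sh_SRSF3 libraries (log2 fold change −0.70 ± 0.13 SE, edgeR adjusted p = 0.000321). RPSA was higher, at 1150.3 and 1077 CPM in sh_TDP43 libraries, against 777 and 724 CPM in sh_SRSF3 libraries (log2 fold change 0.57 ± 0.09 SE, edgeR adjusted p = 9.23e-05). RPL15 did not differ detectably between the knockdowns (−0.18 ± 0.11 SE, edgeR adjusted p = 0.161), nor did RPL36A (0.41 ± 0.19 SE, edgeR adjusted p = 0.0654). The calls for RPL24, RPL29, RPL23 and RPSA held under all 13 alternatives. Without sh_TDP43 replicate 2, 4 members were higher and 4 lower, without sh_TDP43 replicate 1, 3 and 16, without sh_SRSF3 replicate 1, 7 and 9, and without sh_SRSF3 replicate 2, 2 and 13.

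Paralogs and fusion genes of the family were left out by the choice on symbols. Of 9 tested, 2 rose and 2 fell in sh_TDP43, and 3 rose and 3 fell in sh_SRSF3 (median log2 changes 0.11 and 0.13). Of all genes tested, 44.8% were called in sh_TDP43 and 66.9% in sh_SRSF3, and the calls of these 9 are close to those shares. RPL7L1, a nucleolar paralog of RPL7, was at 350.1 and 302 CPM in sh_TDP43, 1147 and 1082 CPM in sh_SRSF3 and 634 and 577 CPM in sh_control, with log2 fold changes against sh_control of −0.89 ± 0.10 SE in sh_TDP43 and 0.88 ± 0.10 SE in sh_SRSF3 (edgeR adjusted p = 1.05e-05 and 3.51e-06). RPL26L1 was at 66.7 and 57.7 CPM in sh_TDP43, 65.5 and 57.8 CPM in sh_SRSF3 and 40.8 and 33.3 CPM in sh_control, and rose in both (log2 fold changes 0.75 and 0.73). RPL22L1, a paralog of RPL22, was at 35.9 and 27.0 CPM in sh_TDP43, 47.4 and 39.8 CPM in sh_SRSF3 and 61.8 and 51.7 CPM in sh_control, and fell in both (−0.85 and −0.38). RPL26 itself fell in sh_TDP43, as given above, where RPL26L1 rose. Reads that match both a gene and its paralog were not counted for either. RPL39L rose in sh_TDP43 (0.36), and in sh_SRSF3 FAU, whose product is a fusion of a ubiquitin-like protein with a small subunit protein, rose (0.29) and RPS27L fell (−0.53). Some of these calls rested on single libraries or on the scaling. RPL39L was at 0.20 without sh_TDP43 replicate 1 (edgeR adjusted p = 0.36) and was not called without either sh_control library. FAU was at 0.13 under upper-quartile scaling (edgeR adjusted p = 0.19) and was not called without either sh_SRSF3 library, and RPL22L1 in sh_SRSF3 was at −0.25 without sh_control replicate 1 and was not called without sh_SRSF3 replicate 2. The third call in sh_SRSF3 was RPL3L, a striated muscle paralog of RPL3, listed at 0 in both sh_SRSF3 libraries and at no more than 0.374 CPM in any other, and it was not called without either sh_SRSF3 library or without sh_control replicate 1.

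Of 19 other genes with TOP tracts or roles in translation, 3 rose and 2 fell in sh_TDP43 and 10 rose and 4 fell in sh_SRSF3 (median log2 changes −0.07 and 0.26). Of all genes tested, 20.7% rose and 24.1% fell in sh_TDP43, and 32.5% rose and 34.4% fell in sh_SRSF3. Among all genes with a mean of at least 100 CPM, 49.4% rose and 24.8% fell in sh_SRSF3 (median log2 change 0.22). The sh_SRSF3 counts of the list are close to the shares at that level. HNRNPA1, an RNA-binding protein, was at 1147 and 1024 CPM in sh_TDP43, 955 and 864 CPM in sh_SRSF3 and 1635 and 1382 CPM in sh_control, and fell in both (log2 fold changes −0.48 and −0.73). EIF4A2, an RNA helicase of initiation, fell in both (−0.46 and −0.66), and EIF3L fell in sh_SRSF3 (−0.57). EIF3F, a subunit of initiation factor eIF3, rose in both (0.28 and 0.80), EIF4B and EIF3H rose in sh_TDP43 (0.41 and 0.24), and NPM1, a nucleolar chaperone, and EIF2S3 rose in sh_SRSF3 (0.72 and 0.65). In sh_TDP43 the call for EIF3F was lost without any single library other than sh_control replicate 1 (0.18 without sh_control replicate 2, edgeR adjusted p = 0.201), and the call for EIF3H was lost without any one of the 6 libraries.

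Among genes of ribosome assembly and rRNA synthesis, more fell than rose in sh_TDP43 and more rose than fell in sh_SRSF3. Both directions also held among all genes with a mean of at least 100 CPM. Of 31 tested, 3 rose and 14 fell in sh_TDP43, where 20.7% of all genes rose and 24.1% fell (median log2 change −0.22). In sh_SRSF3 16 rose and 7 fell, where 32.5% of all genes rose and 34.4% fell (median log2 change 0.27). In the direct comparison 3 were higher and 19 lower in sh_TDP43 than in sh_SRSF3. Of all genes with a mean of at least 100 CPM, 23.7% rose and 30.5% fell in sh_TDP43. At that level 49.4% rose and 24.8% fell in sh_SRSF3, and 21.8% were higher and 51.5% lower in sh_TDP43 than in sh_SRSF3. The median log2 change of all genes there was −0.04 in sh_TDP43 and 0.22 in sh_SRSF3. The sh_SRSF3 counts of the list are close to the shares at that level. EIF6, which keeps the large subunit from joining the small one until it is mature, was at 97.2 and 90.5 CPM in sh_TDP43, 76.2 and 68.0 CPM in sh_SRSF3 and 217 and 208 CPM in sh_control (log2 fold changes −1.18 ± 0.09 SE and −1.56 ± 0.10 SE, edgeR adjusted p = 4.42e-07 and 8.03e-09). UBTF, a transcription factor of RNA polymerase I, and NOP56, a core protein of box C/D particles, fell in sh_TDP43 (−0.86 and −0.79), and RRS1 and UTP14A fell in sh_SRSF3 (−0.998 and −0.81). POLR1A, MDN1 and SBDS rose slightly in sh_TDP43 (0.31, 0.26 and 0.26). The call for POLR1A was lost without sh_TDP43 replicate 1 (edgeR adjusted p = 0.0556), and MDN1 and SBDS each lost theirs without either sh_TDP43 library, either sh_SRSF3 library or 1 of the sh_control libraries. NOLC1, a nucleolar phosphoprotein, was at 541 and 536 CPM in sh_SRSF3 and 274 and 264 CPM in sh_control (log2 fold change 1.00), and PES1 and the kinase RIOK1 rose as well (0.83 and 0.82).

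Among 15 regulators of ribosomal protein synthesis, 3 rose and 5 fell in sh_TDP43 and 9 rose and 3 fell in sh_SRSF3 (median log2 changes −0.04 and 0.43). RPS6KB1, the S6 kinase, was at 31.4 and 30.2 CPM in sh_TDP43, 147 and 158 CPM in sh_SRSF3 and 61.0 and 61.1 CPM in sh_control, so that it fell in sh_TDP43 (log2 fold change −0.99 ± 0.09 SE, edgeR adjusted p = 1.86e-06) and rose in sh_SRSF3 (1.32 ± 0.09 SE, edgeR adjusted p = 2.19e-08). EIF4EBP2, a repressor of cap-dependent translation, fell in both (−1.16 and −1.20). MTOR rose in both (0.66 and 0.61), as did LARP4, an mRNA-stabilising protein (0.49 and 1.14). MYC fell in sh_TDP43 (−0.49), TSC1 rose in sh_SRSF3 (1.11), and TSC2 and LARP1, the TOP-binding protein, fell in sh_SRSF3 (−0.74 and −0.32), the call for LARP1 being lost without sh_SRSF3 replicate 2. These list genes were chosen with earlier results of these data known, and each share is to be read against the 44.8% and 66.9% of all genes called.

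The RIP experiment was deposited as 2 tables for the same 4 libraries, one in FPKM (fragments per kilobase scaled to library size) and one with a signal whose unit no source used here gives. There is 1 library per condition, so no p-value is given, no value has a replicate error, and the depth behind each value is unknown. Ratios are on the log2((RIP + 1)/(input + 1)) scale, which understates the ratio of low genes, and a gene is counted as different at 2-fold or more. No immunoprecipitation from cells without the tag was used here.

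In the flag-TDP43 RIP ribosomal protein mRNAs were below their input more often than other genes. By FPKM, 11 of 77 members were 2-fold or more higher and 29 lower than the input (14.3% and 37.7%, against 15.9% and 13.1% of the 10647 genes at 1 FPKM or more in either library). The large subunit gave 5 higher and 16 lower of 46 with a median log2 ratio of −0.33, and the small subunit 6 higher and 13 lower of 31 with a median of −0.92, against 0.03 for all genes. By the second signal, 8 were higher and 36 lower (against 11.4% and 13.5% of all genes), with medians of −0.82 for large and −1.01 for small subunit genes and −0.10 for all genes. Highly expressed genes as a whole were also low in this RIP. Among genes at 50 or more in the input, a comparison added after the data were seen, 36.3% of 488 genes were 2-fold or more lower in the FPKM table, against 26 of 58 members (44.8%), and 28.0% of 1291 genes in the second table, against 35 of 76 members (46.1%).

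In the flag-SRSF3 RIP fewer small subunit genes lay above the input than among all genes, in both tables. The share of large subunit genes above it was close to that of all genes. By FPKM, 28 of 46 large and 13 of 31 small subunit genes lay above it, against 6393 of 10693 genes. In the second table these were 25 of 46 and 11 of 31, against 7200 of 13869 genes. By FPKM, 15 members were 2-fold or more higher and 17 lower than the input (19.5% and 22.1%, against 14.7% and 6.82% of all genes). The large subunit gave 9 higher and 6 lower with a median log2 ratio of 0.13, and the small subunit 6 higher and 11 lower with a median of −0.41, against 0.18 for all genes. By the second signal, 12 were higher and 18 lower (against 8.59% and 7.24% of all genes). The large subunit there gave 9 higher and 6 lower with a median of 0.05, and the small subunit 3 higher and 12 lower with a median of −0.55, against 0.03 for all genes. Among genes at 50 or more in the input, 19.6% of 515 genes were higher and 18.1% lower by FPKM, against 10 and 13 of 59 members. Summed over members, FPKM were 8606 in the flag-TDP43 RIP, against 10792 in its input, and 12899 in the flag-SRSF3 RIP, against 10995 in its input. The FPKM of all genes summed to 185564 in the flag-TDP43 RIP, against 505828 in its input, so that as a share of that sum the members made up 4.64% in the RIP, against 2.13% in the input, and with flag-SRSF3 4.55% in the RIP, against 2.07% in the input. The direction for flag-TDP43 thus depends on whether the values or their shares are compared.

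**Figure D3:**
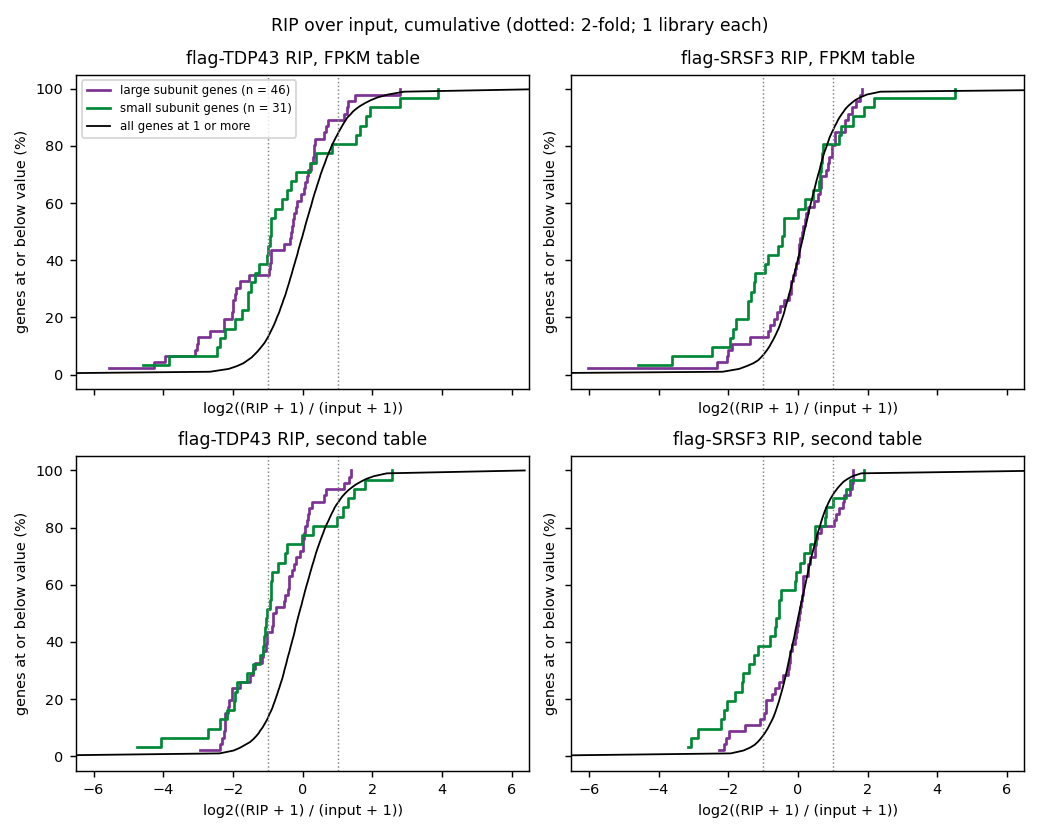
Cumulative share of genes (y axis, percent) at or below each RIP over input ratio (x axis, log2, pseudocount 1) for large subunit genes (purple), small subunit genes (green) and all genes at 1 or more (black), in the flag-TDP43 RIP (left) and flag-SRSF3 RIP (right), from the FPKM table (top) and the second table (bottom). At ratios below 0 both subunits lie left of all genes in the flag-TDP43 RIP, and the small subunit lies left of the large subunit in the flag-SRSF3 RIP, while at high ratios the curves cross; there is 1 library per condition.

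Of the 77 members, 6 were 2-fold or more higher and 26 lower than the input in both tables in the flag-TDP43 RIP. Of all genes measured in both tables, 10.4% were higher and 9.85% lower. Among genes at 50 or more in the flag-TDP43 input, 36.3% were lower by FPKM and 28.0% in the second table, each table taken alone. The 6 higher were RPL10A, RPL37, RPS6, RPS23, RPS24 and RPS27A, and of the 26 lower 15 were of the large and 11 of the small subunit. In the flag-SRSF3 RIP 10 members were higher and 14 lower in both tables, against 7.5% and 4.39% of all genes. The 10 higher included RPL23A, RPL28, RPL29, RPL41, RPLP1, RPLP2, RPS15 and RPS27, and of the 14 lower 5 were of the large and 9 of the small subunit. These 10 include the mRNAs of both acidic stalk proteins, RPLP1 and RPLP2. The mRNA of RPLP0, their partner in the stalk, was within 2-fold of its input in this RIP (log2 ratios −0.26 by FPKM and 0.06 in the second table).

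RPS6 stood above its input in the flag-TDP43 RIP in both tables. It was at 856 FPKM in the RIP, against 223 FPKM in the input (log2 ratio 1.93), and in the second table at 3244 in the RIP, against 944 in the input (1.78). RPS3A, a small subunit protein near the site where mRNA leaves the ribosome, was at 1197 FPKM in the flag-TDP43 RIP, against 339 FPKM in the input (1.82), and at 1791, against 910.3, in the second table (0.98). Pseudogenes named after RPS3A summed to 652 FPKM in the RIP, against 139.6 FPKM in the input, and their part in the value of RPS3A was not tested. RPS27A, which is made as a fusion with ubiquitin, was at 61.2 FPKM in the flag-TDP43 RIP, against 3.23 FPKM in the input, and at 2816, against 478, in the second table. The flag-TDP43 input was low beside the flag-SRSF3 input, which had 43.8 FPKM (log2 −3.40; −0.37 in the second table). Its ratios were the largest of the members in both tables (3.88 and 2.56), and it was named after its values were seen, since its input is below the 10 FPKM set for named genes.

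At the other end, RPS29, a zinc-binding protein of the small subunit, was low in both RIPs and both tables. It was at 0.272 FPKM in the flag-TDP43 RIP, against 17.2 FPKM in its input (log2 ratio −3.84), and at 81.8, against 2240.1, in the second table (−4.76). In the flag-SRSF3 RIP it was at 0.274 FPKM, against 14.5 FPKM in its input (−3.61), and at 277, against 2343, in the second table (−3.08). RPL10, a protein that joins the large subunit late in its assembly, was at 3.05 FPKM in the flag-TDP43 RIP, against 77.7 FPKM in the input (−4.28), and at 180.0, against 625, in the second table (−1.79). In the flag-SRSF3 RIP RPL10 was at 193 FPKM, against 91.6 FPKM in its input (1.07), and at 939, against 770.4, in the second table (0.28).

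RPS15 and RPL23A stood above the input in the flag-SRSF3 RIP in both tables. RPS15, a protein of the head of the small subunit, was at 88.5 FPKM in the RIP, against 23.1 FPKM in the input (log2 ratio 1.895), and at 593, against 159, in the second table (1.896). RPL23A, which lies at the end of the peptide exit tunnel, was at 677 FPKM in the RIP, against 189 FPKM in the input (1.84), and at 1595, against 543, in the second table (1.55). In the flag-TDP43 RIP these genes lay on the other side. RPS15 was at 6.27 FPKM in the flag-TDP43 RIP, against 26.8 FPKM in its input, and RPL23A at 39.0 FPKM, against 189 FPKM, with log2 ratios of −1.94 and −2.25 and of −1.88 and −2.25 in the second table.

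Some members lay on opposite sides of the input with the 2 proteins. RPL23A, RPL29, RPLP2, RPS15 and RPS27 were 2-fold or more below the input with flag-TDP43 and 2-fold or more above it with flag-SRSF3 in both tables, and RPS23 was the 1 member with the opposite pattern in both. RPS27, whose protein binds zinc, was at 101.3 FPKM in the flag-TDP43 RIP, against 483 FPKM in its input, and at 1583 FPKM in the flag-SRSF3 RIP, against 529.8 FPKM in its input. RPS23, which lies at the decoding centre, was at 209 FPKM in the flag-TDP43 RIP, against 72.0 FPKM in its input, and at 21.9 FPKM in the flag-SRSF3 RIP, against 125 FPKM in its input. RPL35A, RPS3, RPS15A, RPS21 and RPS29 were 2-fold or more below the input with both proteins in both tables, and 0 members were 2-fold or more above it with both. The share of all genes in these combined classes was not computed, so whether the members differ from other genes here is unknown. By FPKM the flag-TDP43 ratio was 2-fold or more below the flag-SRSF3 ratio for 30 members and above it for 14. Of all genes, 25.2% were below and 19.0% above. In the second table these were 31 and 13 members, against 22.3% and 17.7% of all genes. Across the 77 members the ratios of the proteins had a Pearson correlation of 0.24 in the FPKM table and −0.12 in the second, as a description of these libraries.

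**Figure D4:**
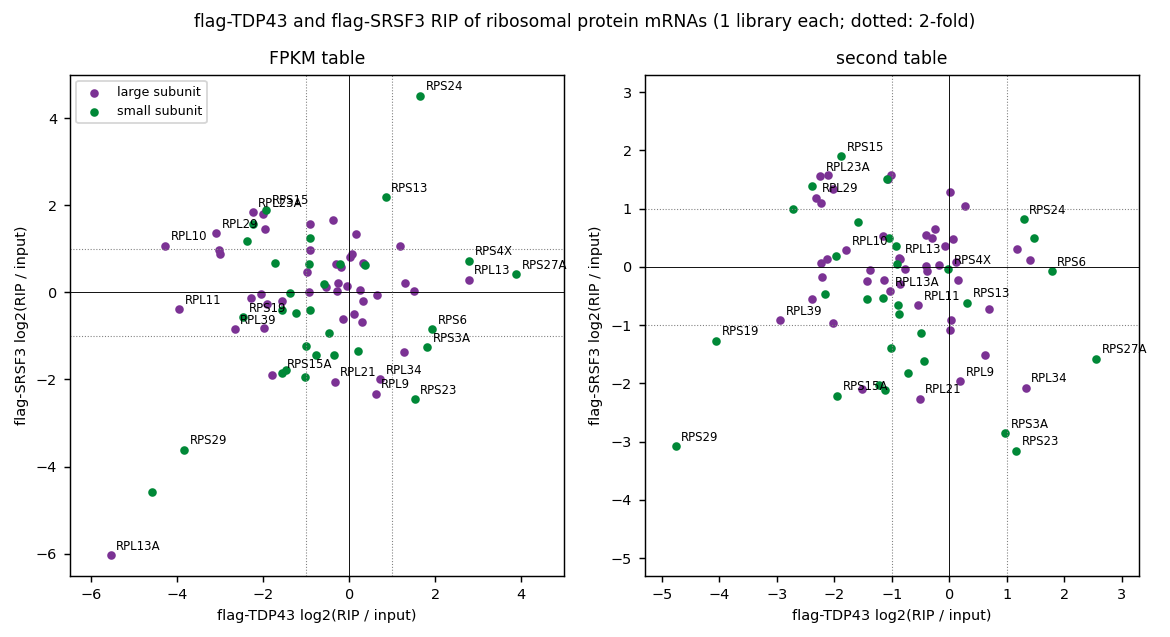
RIP over input (log2) of the 77 ribosomal protein genes with flag-TDP43 (x axis) and with flag-SRSF3 (y axis) in the FPKM table (left) and the second table (right), large subunit in purple and small subunit in green, dotted lines at 2-fold. RPS15, RPL23A and RPL29 lie at the upper left and RPS23 at the lower right in both tables, and RPL13A lies at the lower left end in the FPKM table alone.

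For some members the tables gave different answers. RPL13A was at 10.1 FPKM in the flag-TDP43 RIP, against 518 FPKM in its input (log2 ratio −5.55), and at 6.77 FPKM in the flag-SRSF3 RIP, against 508 FPKM (−6.03), the lowest FPKM ratios of the members. In the second table its ratios were −1.03 and −0.42, from 678 in the flag-TDP43 RIP, against 1390.2 in its input, and 974 in the flag-SRSF3 RIP, against 1299. RPS4X, the X-linked small subunit gene, had the highest FPKM ratio with flag-TDP43 among members of 10 FPKM or more in the input (80.2 FPKM in the RIP, against 10.8 FPKM in the input, 2.79), but −0.02 in the second table. RPS13 had the highest with flag-SRSF3 (74.5 FPKM in the RIP, against 15.6 FPKM in the input, 2.18), but −0.62 in the second table.

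**Figure D5:**
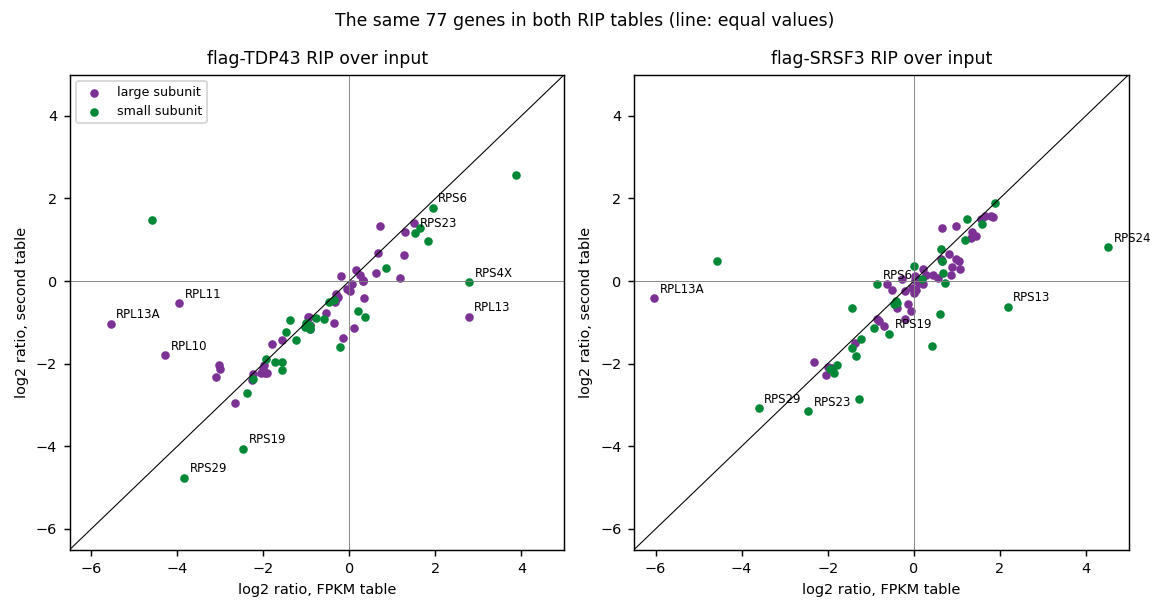
RIP over input (log2) of the 77 ribosomal protein genes in the FPKM table (x axis) and in the second table (y axis) for flag-TDP43 (left) and flag-SRSF3 (right), large subunit in purple and small subunit in green, with the line of equal values. Most genes follow the line, and RPL13A, RPS4X, RPL13, RPS13 and RPS24 lie far from it.

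The tables differed by 4-fold or more for 6 members with flag-TDP43, among them RPL10, RPL11, RPL13, RPL13A and RPS4X, and for 4 with flag-SRSF3, among them RPL13A, RPS13 and RPS24. Small nucleolar RNA genes annotated inside the member are present in 4 of these 6 and in 3 of these 4, against 24 of the other 71 members and 25 of the other 73; their part in the difference was not tested. Ratios had the same sign in both tables for 67 of 77 members with flag-TDP43 and 66 of 77 with flag-SRSF3. The inputs of flag-TDP43 and flag-SRSF3 cells were 2-fold or more apart for 8 members in the FPKM table, 4 higher and 4 lower (3.97% and 3.69% of all genes), and for 1 in the second table, 0 higher and 1 lower (1.44% and 1.52% of all genes). In FPKM, RPS24 was at 92.3 in the flag-TDP43 input, against 9.36 in the flag-SRSF3 input, and at 1237, against 1439, in the second table. Its FPKM ratio with flag-SRSF3 (4.52, from 236 FPKM in the RIP) rests on that low input, and the second table gave 0.82.

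Members that fell in a knockdown were found on both sides of the input in the RIP of the same protein. Of the 11 that fell in sh_TDP43, RPS6 and RPS24 were 2-fold or more above and RPL24, RPL26, RPL29 and RPS27 2-fold or more below the input of the flag-TDP43 RIP in both tables, against 4 above and 21 below among the 65 members not called. RPL29 was at 18.6 FPKM in the flag-TDP43 RIP, against 166 FPKM in its input, and RPL24 at 28.8 FPKM, against 118 FPKM. RPL15, which fell in both knockdowns, was near its input with both proteins, at 56.3 FPKM in the flag-TDP43 RIP, against 67.5 FPKM in its input, and at 80.6 FPKM in the flag-SRSF3 RIP, against 69.0 FPKM in its input. Of the 10 that fell in sh_SRSF3, RPL28 and RPLP1 were above and RPL21 below the input of the flag-SRSF3 RIP in both tables, against 8 above and 11 below among the 59 members not called. Of the 8 that rose, RPL23 and RPS23 were below it and 0 above it. Across the 77 members the FPKM ratio and the log2 fold change in the knockdown of the same protein had a Pearson correlation of −0.07 for TDP43 and −0.01 for SRSF3, a description across genes of the same libraries.

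Reads of ribosomal protein mRNAs are hard to place, since 1003 pseudogenes in the RIP tables are named after 75 of the members. For some the pseudogenes held more FPKM than the gene. Pseudogenes named after RPL9 summed to 643 FPKM in the flag-TDP43 RIP and 606 FPKM in its input, against 31.9 and 20.4 FPKM for RPL9 itself. Those named after RPL41 summed to 836 FPKM in the flag-TDP43 RIP and 635 FPKM in its input, against 172 and 154 FPKM for RPL41, and to 1196 FPKM in the flag-SRSF3 RIP and 649 FPKM in its input, against 407 and 160.4 FPKM for RPL41. Values of single members can therefore include or lack reads of such copies, and no source used here says which tool assigned them.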

How the data were processed

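Per the file headers, the knockdown values the authors deposited are unnormalised counts made by featureCounts (v1.4.6-p5) over exons, with no strand option and coordinates on GRCh37. Per the submitters' processing notes, the tools were HISAT2 2.0.5, STAR 2.5.2a, Cufflinks and StringTie 1.3.0 on GRCh37, with no role given. Reads that match several places or several genes were left out under the options in the header, which lowers members with copies or read-through genes. The authors deposited FPKM per gene for the RIP and input libraries, and a second deposited table holds a normalised signal for the same libraries, whose unit no source used here gives. For flag-SRSF3 in the second table, the deposited log2 ratios of RIP over input equal those recomputed from its signal to within 1e-06. This covers genes with a signal in both libraries. The other deposited ratios, those of the FPKM table among them, were not compared.

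Names came from the files for 27068 genes and from a reference table for 89, and 588 stayed unnamed. Of the count columns, 2 with per-sample values match no label and were not used. The members, lists and alternatives were chosen with earlier results of these data known. The planned fit of 4 knockdown groups became a fit of 3 groups in 6 libraries.

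The quasi-likelihood test of edgeR 4.0.16 (R 4.3.3; two-sided, TMM factors, low counts removed by filterByExpr, 3 residual degrees of freedom) was applied to 15026 genes, with Benjamini-Hochberg adjusted p under 0.05 as the threshold. Levels are TMM-scaled CPM. The procedure was tested on simulated counts. RIP ratios used a pseudocount of 1 and genes at 1 or more in either library. Alternatives were upper-quartile and RLE scaling, TMM without ribosomal protein genes, DESeq2 1.42.0, no filter, the compared groups alone, a replicate block and leaving out each library, and for the RIPs pseudocounts of 0.1 and 0, all genes above 0, centring on the median and the second table.

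Named members are, per knockdown and direction, up to 6 called with the largest change (the remaining called members are given by name and size), the 3 highest and 3 lowest RIP ratios among members of at least 10 FPKM in the input, and the 3 most and 3 least abundant per kilobase. From the other lists up to 3 called genes per list, comparison and direction were named. Tables were handled with Python 3.11.15 and pandas 2.3.3. Start sequences are from RefSeq, GRCh38.p14. Some members enter the counts and medians but are not reported by name here.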

Additional observations from a re-analysis of the deposited data

How the results depend on the processing

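Counts of members called depended on scaling and on single libraries. Under upper-quartile scaling 6 members were higher in sh_TDP43 than in sh_control, 1 was higher and 27 were lower in sh_SRSF3 than in sh_control, and 30 were higher and 3 lower in sh_TDP43 than in sh_SRSF3; this scaling also moved the median log2 change of all genes, to 0.09, −0.19 and 0.29, and the cause was not tested further. Members higher in sh_TDP43 numbered 2 with no filter, 0 with only the groups compared and 3 with DESeq2. With the replicate number as a block, 5 were higher and 20 lower in sh_TDP43, 15 higher and 16 lower in sh_SRSF3, and 15 were higher in sh_TDP43 than in sh_SRSF3. Same-numbered libraries had deviations correlated at 0.12, 0.075 and 0.088 over all genes, so with 2 libraries per group the numbers are not shown to pair them. Leaving out single libraries gave 0 to 7 higher and 6 to 21 lower in sh_TDP43, 1 to 17 higher and 6 to 15 lower in sh_SRSF3, and 2 to 9 higher and 4 to 22 lower in sh_TDP43 against sh_SRSF3; an arm with 1 library was assumed to vary like the others. RLE scaling and TMM without ribosomal protein genes left every count of calls within 1.5 times. In the RIPs, the second table gave 0 higher and 1 lower for the flag-TDP43 input over the flag-SRSF3 input. Log2 ratios were checked for turning round only for members named for their RIP ratios. Those turned round included RPS4X (−0.024) with flag-TDP43 and RPS13 (−0.62) with flag-SRSF3. Between the inputs they included RPS13 (−0.17) and RPS3A (−0.11), and between the flag-TDP43 and flag-SRSF3 ratios RPS13 (0.93). Other members also turned round, among them RPL13 with flag-TDP43 (2.78 by FPKM, −0.87 in the second table). RPS24 did so between the inputs (3.17 by FPKM, −0.22 in the second table). The cause was not tested. The other 38 RIP counts under alternatives stayed within 1.5 times. Alternatives for the combined knockdown and its interaction were not run. One library per RIP condition and 2 per knockdown group limit every value.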
